A study of Mus musculus with 6 samples.

Results

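Mitochondria take in most of their proteins and metabolites through the products of 3 gene families, which were followed here in mouse germinal centre B cells made in culture and treated with the GSK3 inhibitor CHIR99021 or with DMSO. The members are the gene entries whose symbols start with Tomm, Timm or Slc25a followed by a digit and whose mean over the 6 libraries was 1 FPKM or more. FPKM counts fragments per kilobase of transcript, scaled to the size of the library, so that levels of different genes can be set side by side. There were 57 members (9 Tomm, 13 Timm and 35 Slc25a) of 71 entries with such symbols, among 10096 entries at this level and 23850 in all. The rule used levels averaged over both groups and not the difference between them.

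The cells came from wild-type C57BL/6J mice. In both groups, naive follicular B cells were cultured for 4 days on feeder cells expressing CD40L with IL-4 at 1 ng/ml, and the resulting induced germinal centre B cells then stayed for 36 h on such feeders with IL-21 at 10 ng/ml. In that period 3 cultures received CHIR99021 at 3 uM, a small molecule that inhibits the kinases GSK3A and GSK3B, and 3 received DMSO, its solvent, beside which the labels print the same 3 uM. The series calls the triplicates biological and does not name their mice, so p-values measure the spread between these cultures. Its purpose is to compare the transcriptomes of such cells with and without GSK3 inhibition, and here the import and carrier genes are compared.

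Proteins made in the cytosol enter mitochondria through the TOM complex of the outer membrane, where receptors bind precursors and a channel lets them through. From there, precursors with a cleavable presequence pass the TIM23 complex and its motor into the matrix, whereas metabolite carriers are escorted by small chaperones of the intermembrane space to the TIM22 complex, which inserts them into the inner membrane. The SLC25 family holds these carriers, most of which exchange particular nucleotides, phosphate, carboxylates, amino acids or cofactors between cytosol and matrix. Activated B cells enlarge their mitochondria as they grow and divide.

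With CHIR99021, 13 members rose and 6 fell out of 57, where "rose" and "fell" mean an adjusted p under 0.05 in limma's test over all 10096 entries. The members called were 33.3% of 57 (22.8% higher, 10.5% lower), against 21.4% of all entries tested (8.13% higher, 13.3% lower). The median log2 change was 0.15 over the members and -0.04 over all entries tested. Changes are given on the log2(FPKM + 1) scale, and folds as ratios of mean FPKM. Those that rose include 2 of the 3 outer membrane receptors, the channel gene Tomm40, 2 of the 5 intermembrane space chaperones, the 3 most abundant carriers and Slc25a33, which had the largest rise. The falls were, but for Timm17b, among carriers. With the replicate number as a block, 22 members were called higher and 8 lower, beside 42.8% of all entries (18.4% higher, 24.4% lower). All 3 CHIR99021 libraries lay above all 3 DMSO libraries for 20 members and below them for 10, whereas groups without overlap made up 40.1% of all entries (17.0% above, 23.1% below). Without CHIR99021 replicate 3, 7 members were called higher and 3 lower, and the number called lower was also 3 without DMSO replicate 1 or DMSO replicate 3. Of the 19 called members, 10 stayed called whichever library was left out.

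The libraries held 527290 to 617449 FPKM in sum, and the deposited confidence limits lay 12.0% to 14.9% of the value away from it for the median member, depending on the library. Log2 values correlated at r = 0.970 to 0.980 across genes, which are not independent replicates, within a group and at 0.942 to 0.967 between groups, and no libraries were duplicates. The 5 B cell markers shown (Cd79a, Cd79b, Ms4a1, Pax5 and Cd22) were present in every library, with sums of 1057 to 1310.5 FPKM in CHIR99021 and 2302 to 3138 in DMSO. Each of the 5 was called lower in CHIR99021, beside 13.3% of all entries tested. Their log2 changes ran from -0.92 for Pax5 to -1.40 for Ms4a1 (adjusted p = 0.000518 to 0.00606). All 6 germinal centre markers averaged above 1 FPKM, with sums of 116 to 125 in CHIR99021 and 129 to 135 in DMSO, as did 5 of 6 plasma cell markers, with sums of 471 to 588 in CHIR99021 and 489 to 767 in DMSO. Within that list Irf4 averaged 82.1 FPKM in CHIR99021 and 30.5 in DMSO (log2 change 1.40 ± 0.10 SE, adjusted p = 0.000431), Prdm1 16.2 in CHIR99021 and 6.27 in DMSO (log2 change 1.25 ± 0.18 SE, adjusted p = 0.00347), and Jchain, listed as Igj, 289 in CHIR99021 and 452 in DMSO (log2 change -0.62 ± 0.23 SE, adjusted p = 0.1001). Xbp1 was called higher only with the replicate block (log2 change 0.24 ± 0.08 SE, adjusted p = 0.0567, or 0.0172 with the block). Jchain was called lower only with it (adjusted p = 0.00134 with the block). Sdc1 was called in neither fit (log2 change -0.23 ± 0.22 SE, adjusted p = 0.510, or 0.118 with the block). Tnfrsf17, below the limit on level, averaged 0.115 FPKM in CHIR99021 and 0.673 in DMSO. Among the T cell markers, Lck made up nearly all of the sums of 11.8 to 13.99 in CHIR99021 and 13.3 to 16.4 in DMSO. Cd3e was at 0 throughout, and of the 6 only Lck averaged above 1 FPKM. Of 6 myeloid markers 2 did so, Itgam and Lyz2, with sums of 2.39 to 6.87 in CHIR99021 and 6.52 to 7.94 in DMSO, and Cd14 was at 0 throughout. Of 6 fibroblast markers, included for the feeder cells, 3 did so, with sums of 44.7 to 218 in CHIR99021 and 50.9 to 277 in DMSO and the highest sum in replicate 1 of both groups. Of the germinal centre, T cell, myeloid and fibroblast markers, only Fas and Itgam were called without the block, both lower. Fas had a log2 change of -0.33 ± 0.09 SE (adjusted p = 0.0328) and Itgam -1.41 ± 0.19 SE (adjusted p = 0.00264). The part of these markers in the results was not tested. In such bulk libraries, fewer cells of a type and less RNA per cell cannot be told apart.

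The windows from 250 bases before to 50 after an annotated start (RefSeq, GRCm38.p6, the assembly of mm10) were searched on both strands for the E-box CACGTG, bound by MYC and related factors, and for the NRF1 motif, 10 bases long with 1 left free, named for a regulator of nuclear genes for mitochondria. The table held 57 windows of 46 members. Shown first are the 5 members called higher whose window holds either motif, with the motif in capitals (the NRF1 motif reads on the other strand in all 3), each written 5′ to 3′ on the gene's strand and named with its window.
Slc25a33, chr4:149774218-149774517, minus strand: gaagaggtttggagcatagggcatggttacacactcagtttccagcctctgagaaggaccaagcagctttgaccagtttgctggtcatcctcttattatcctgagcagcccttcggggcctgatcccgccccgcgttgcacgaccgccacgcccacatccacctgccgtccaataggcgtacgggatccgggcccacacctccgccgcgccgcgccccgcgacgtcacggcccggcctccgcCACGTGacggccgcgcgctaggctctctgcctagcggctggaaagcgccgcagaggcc
Timm9, chr12:71136626-71136925, minus strand: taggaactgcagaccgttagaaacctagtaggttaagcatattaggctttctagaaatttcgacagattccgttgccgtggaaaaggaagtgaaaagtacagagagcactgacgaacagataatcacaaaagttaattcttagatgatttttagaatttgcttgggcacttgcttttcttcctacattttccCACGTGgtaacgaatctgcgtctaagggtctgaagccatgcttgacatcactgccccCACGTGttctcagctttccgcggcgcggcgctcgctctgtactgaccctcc
Timm8b, chr9:50603651-50603950, plus strand: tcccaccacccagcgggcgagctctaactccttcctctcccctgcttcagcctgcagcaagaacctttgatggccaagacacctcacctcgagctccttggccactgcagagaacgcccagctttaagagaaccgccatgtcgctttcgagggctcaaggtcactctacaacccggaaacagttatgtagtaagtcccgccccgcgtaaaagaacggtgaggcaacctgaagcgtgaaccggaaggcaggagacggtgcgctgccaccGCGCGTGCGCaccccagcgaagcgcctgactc
Tomm20, chr8:126945872-126946171, minus strand: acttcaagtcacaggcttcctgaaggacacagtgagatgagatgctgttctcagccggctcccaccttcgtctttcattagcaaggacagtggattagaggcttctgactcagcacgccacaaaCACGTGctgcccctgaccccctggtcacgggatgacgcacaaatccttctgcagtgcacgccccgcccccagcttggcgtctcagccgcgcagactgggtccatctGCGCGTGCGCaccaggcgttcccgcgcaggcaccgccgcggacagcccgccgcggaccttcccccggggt
Slc25a3, chr10:91123918-91124217, minus strand: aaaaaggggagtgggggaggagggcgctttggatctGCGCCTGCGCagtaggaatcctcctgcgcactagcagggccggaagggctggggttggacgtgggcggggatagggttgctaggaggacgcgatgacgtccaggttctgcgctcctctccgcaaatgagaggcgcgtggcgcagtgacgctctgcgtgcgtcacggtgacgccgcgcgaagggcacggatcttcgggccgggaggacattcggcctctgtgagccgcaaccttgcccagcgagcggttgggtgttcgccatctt

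Counting the start base as 0, the E-box lay at -8 to -3 in Slc25a33 and at -126 to -121 in Tomm20. Timm9 held 2, at -58 to -53 and at -1 to 4. The NRF1 motif lay at -20 to -11 in Tomm20, at 18 to 27 in Timm8b and at -214 to -205 in Slc25a3, and no match in these windows overlapped another motif. The E-box was in 11 of the 57 member windows (19.3%), against 10.5% of the 9676 windows of genes tested in the series and 7.15% of all 32851 windows. By call, it was in 3 of the 13 windows of members that rose, in 0 of the 4 windows of members that fell and in 8 of 40 windows of the rest. The NRF1 motif was in 3 of the 13 windows of members that rose, in none of the others (0 of 4 and 0 of 40), and so in 5.26% of member windows, against 11.1% of those of tested genes and 4.6% of all windows. The motif TGATGNAA, part of the response element of ATF4 and C/EBP, was in 0 member windows, 2.32% of those of tested genes and 3.97% of all. CCAAT, the core of the NFY site, was in 42.1% of member windows, 38.4% of those of tested genes and 37.4% of all. By call it was in 4 of 13 windows of members that rose, in 3 of 4 of members that fell and in 17 of 40 of the rest. Of those 3 that fell, the windows of the 2 with the largest falls follow, with the motif in capitals, read on the other strand in Slc25a10.
Slc25a11, chr11:70646990-70647289, minus strand: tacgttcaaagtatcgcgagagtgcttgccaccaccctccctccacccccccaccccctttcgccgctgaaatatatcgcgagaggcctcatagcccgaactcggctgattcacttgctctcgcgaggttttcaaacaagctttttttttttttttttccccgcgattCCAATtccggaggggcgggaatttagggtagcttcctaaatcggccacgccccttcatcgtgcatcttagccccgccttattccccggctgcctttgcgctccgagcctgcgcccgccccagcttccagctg
Slc25a10, chr11:120491587-120491886, plus strand: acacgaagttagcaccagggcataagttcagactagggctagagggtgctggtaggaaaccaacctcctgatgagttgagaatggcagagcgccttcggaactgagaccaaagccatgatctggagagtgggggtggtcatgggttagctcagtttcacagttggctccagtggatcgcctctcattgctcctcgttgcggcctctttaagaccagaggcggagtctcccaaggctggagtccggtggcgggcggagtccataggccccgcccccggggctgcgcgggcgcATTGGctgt

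In the TOM complex, 4 of 9 Tomm members rose and 0 fell (5 and 1 with the block), and the receptors Tomm20 and Tomm70a rose together with the channel gene Tomm40. Over all entries tested, 8.13% rose and 13.3% fell, or 18.4% and 24.4% with the block. Tomm70a (chromosome 16, 57121714 to 57154530 on mm10), the receptor that prefers carrier precursors, had 44.4, 48.9 and 49.2 FPKM in the CHIR99021 libraries, against 28.1, 33.2 and 30.8 FPKM in the DMSO libraries. The groups did not overlap and CHIR99021 was 1.55-fold higher (log2 change 0.61 ± 0.09 SE, adjusted p = 0.00393). Tomm20 (chromosome 8, 126930664 to 126945921), the receptor for presequences, had 44.5, 39.9 and 39.8 FPKM in the CHIR99021 libraries, against 29.9, 26.5 and 27.6 FPKM in the DMSO libraries. All CHIR99021 libraries were above all DMSO libraries (log2 change 0.55 ± 0.09 SE, adjusted p = 0.00519). Stretches of its transcript are near-identical to 4 processed pseudogenes. Tomm22, the central receptor that holds the complex together, had 114, 98.6 and 117 FPKM in the CHIR99021 libraries, against 112, 94.7 and 102 FPKM in the DMSO libraries. Its groups overlapped (log2 change 0.09 ± 0.10 SE, adjusted p = 0.576).

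Tomm40 (chromosome 7, 19701313 to 19715429) encodes the beta-barrel channel, and had 101, 116 and 123 FPKM in the CHIR99021 libraries, against 69.98, 78.1 and 82.04 FPKM in the DMSO libraries. CHIR99021 was 1.48-fold higher with no overlap (log2 change 0.56 ± 0.10 SE, adjusted p = 0.00828). Its relative Tomm40l, which encodes a second channel protein, ran lower in CHIR99021. Tomm40l had 7.34, 6.66 and 5.78 FPKM in the CHIR99021 libraries, against 8.60, 9.30 and 8.36 FPKM in the DMSO libraries. The groups did not overlap, and the call depended on the fit (log2 change -0.37 ± 0.12 SE, adjusted p = 0.0662, or 0.0176 with the replicate block, within 0.0176 to 0.215 over the 14 alternatives). Its span overlaps the gene of the nuclear receptor Nr1i3, which averaged 0 FPKM in both groups. Of the small subunits, Tomm5 (chromosome 4, 45105210 to 45108113) had 129, 150.2 and 151 FPKM in the CHIR99021 libraries, against 94.97, 93.3 and 106 FPKM in the DMSO libraries. Tomm5 was 1.46-fold higher in CHIR99021 with no overlap (log2 change 0.54 ± 0.10 SE, adjusted p = 0.00739). Tomm6 had 111, 93.2 and 112 FPKM in the CHIR99021 libraries, against 97.2, 80.1 and 84.9 FPKM in the DMSO libraries. The Tomm6 ranges overlapped, since CHIR99021 replicate 2 lay below DMSO replicate 1, and it passed only with the block (log2 change 0.27 ± 0.11 SE, adjusted p = 0.122, or 0.0149 with the replicate block, within 0.0149 to 0.327 over the 14 alternatives). Tomm7, which regulates assembly of the complex, had a log2 change of -0.09 ± 0.12 SE, and Tomm34, a cytosolic co-chaperone of precursors, 0.10 ± 0.10 (adjusted p = 0.649 and 0.554). Each of the 4 Tomm genes that rose stayed called whichever library was left out. The 9 Tomm members summed to 650, 661 and 711 FPKM in the CHIR99021 libraries, against 560, 518 and 549 in the DMSO libraries.

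**Figure D1:**
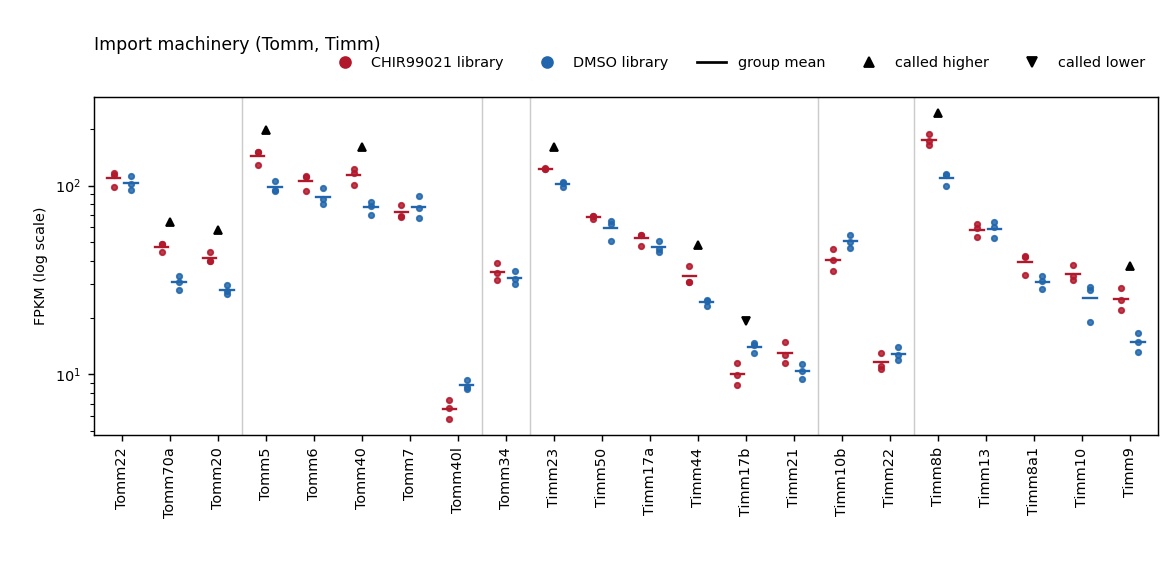
FPKM (log scale) of the 22 Tomm and Timm members in each of the 3 CHIR99021 and 3 DMSO libraries, with group means as bars, ordered by role and divided by grey lines. Triangles mark the 8 members called higher and the 1, Timm17b, called lower; Tomm40 and Tomm40l, and Timm23 and Timm17b, lie on opposite sides of their DMSO values.

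Of the 13 Timm members, 4 rose and 1 fell (6 and 2 with the block), and the largest rises were those of 2 chaperones of the intermembrane space. The shares were 30.8% higher and 7.69% lower, beside 8.13% and 13.3% of all entries tested (18.4% and 24.4% with the block). Timm9 (chromosome 12, 71123172 to 71136675), which joins Timm10 in a ring that escorts carriers, had 21.9, 28.7 and 24.9 FPKM in the CHIR99021 libraries, against 13.1, 16.5 and 14.9 FPKM in the DMSO libraries. It was 1.69-fold higher in CHIR99021 with no overlap (log2 change 0.72 ± 0.13 SE, adjusted p = 0.00740). Timm8b (chromosome 9, 50603901 to 50605320), of the related Timm8-Timm13 chaperones, had 164, 173 and 187 FPKM in the CHIR99021 libraries, against 114, 99.4 and 115 FPKM in the DMSO libraries. That is 1.59-fold higher, again with no overlap (log2 change 0.67 ± 0.09 SE, adjusted p = 0.00277), and both calls held whichever library was left out. The partner Timm10 had 31.6, 37.8 and 33.1 FPKM in the CHIR99021 libraries, against 18.9, 27.8 and 29.01 FPKM in the DMSO libraries. Its lowest DMSO value stood apart from the other 2, and the groups did not overlap (log2 change 0.44 ± 0.16 SE, adjusted p = 0.0957, or 0.0143 with the replicate block, within 0.0143 to 0.235 over the 14 alternatives). Without that library, DMSO replicate 1, the log2 change of Timm10 was 0.25. Timm8a1, the mouse counterpart of the human deafness-dystonia gene, had 33.8, 41.8 and 42.6 FPKM in the CHIR99021 libraries, against 28.3, 31.2 and 33.1 FPKM in the DMSO libraries. Here too the CHIR99021 values were all above the DMSO values (log2 change 0.34 ± 0.11 SE, adjusted p = 0.0716, or 0.00616 with the replicate block, within 0.00616 to 0.227 over the 14 alternatives). Timm13, the partner of Timm8, was level between the groups, with 59.7, 53.5 and 62.2 FPKM in the CHIR99021 libraries, against 63.8, 52.9 and 60.1 FPKM in the DMSO libraries (log2 change -0.01 ± 0.10 SE, adjusted p = 0.961). Its small difference changed sign with the scaling, at 0.06 with upper-quartile and 0.04 with quantile scaling.

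At the TIM22 complex, neither member rose. Timm22, the carrier translocase itself, had a log2 change of -0.14 ± 0.11 SE (adjusted p = 0.418). Timm10b, the small Tim bound to that complex, had 45.97, 35.1 and 40.5 FPKM in the CHIR99021 libraries, against 54.9, 46.4 and 50.4 FPKM in the DMSO libraries. CHIR99021 was below DMSO in each pair of same-numbered libraries, and the call depended on the fit (log2 change -0.32 ± 0.12 SE, adjusted p = 0.0916, or 0.00638 with the replicate block, within 0.00638 to 0.237 over the 14 alternatives). Timm9 and Timm10 thus lay above their DMSO values, and Timm10b below its own.

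In the TIM23 complex, 2 of 6 members rose and 1 fell, beside 8.13% higher and 13.3% lower of all entries tested. Timm23 (chromosome 14, 32180166 to 32201891), the channel, had 122, 124 and 122 FPKM in the CHIR99021 libraries, against 98.5, 103 and 104 FPKM in the DMSO libraries. The groups did not overlap and both were narrow (log2 change 0.27 ± 0.07 SE, adjusted p = 0.0316), yet it was not called without CHIR99021 replicates 1, 2 or 3 or DMSO replicates 1 or 3 (adjusted p = 0.0737 to 0.106), nor with same-sum scaling (0.161) or no variance trend (0.0711), within 0.00681 to 0.161 over the 14 alternatives. Its transcript is 99.9% identical over 1121 bases to another annotated coding gene, Gm10273, and near-identical to 5 pseudogenes, so reads may have been shared. Timm44 (chromosome 8, 4259731 to 4275905), which tethers the import motor to the channel, had 30.8, 37.3 and 30.9 FPKM in the CHIR99021 libraries, against 22.99, 24.6 and 24.9 FPKM in the DMSO libraries. The lowest CHIR99021 library exceeded the highest DMSO library (log2 change 0.43 ± 0.10 SE, adjusted p = 0.0216). Timm44 was not called without CHIR99021 replicates 2 or 3 or DMSO replicates 1 or 3 (adjusted p = 0.0538 to 0.0627), nor with same-sum scaling (0.111), within 0.00456 to 0.111 over the 14 alternatives. Timm17b (chromosome X, 7899398 to 7907652), 1 of 2 alternative channel subunits, fell and had 11.5, 8.84 and 9.88 FPKM in the CHIR99021 libraries, against 14.4, 12.95 and 14.7 FPKM in the DMSO libraries. It was 1.39-fold lower without overlap (log2 change -0.44 ± 0.12 SE, adjusted p = 0.0364), but not called without CHIR99021 replicates 2 or 3 or DMSO replicates 1 or 3 (adjusted p = 0.0913 to 0.122), nor with no limit on level (0.0637) or upper-quartile scaling (0.0813) or quantile scaling (0.0951), within 0.00584 to 0.122 over the 14 alternatives. The other version, Timm17a, had 55.01, 54.8 and 47.7 FPKM in the CHIR99021 libraries, against 50.8, 46.02 and 44.6 FPKM in the DMSO libraries, and its ranges overlapped (log2 change 0.15 ± 0.09 SE, adjusted p = 0.290). Timm50, the receptor of the complex, and Timm21, which links it to TOM, had log2 changes of 0.21 ± 0.10 and 0.30 ± 0.12 SE and did not pass (adjusted p = 0.194 and 0.128). Timm50 had 69.3, 66.9 and 69.1 FPKM in the CHIR99021 libraries, against 62.7, 50.7 and 64.6 FPKM in the DMSO libraries, with no overlap. The Timm members summed to 670, 684 and 696 FPKM in the CHIR99021 libraries, against 566, 534 and 579 in the DMSO libraries.

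Among the 35 carriers, 5 rose and 5 fell (11 and 5 with the block), and the 3 most abundant all rose. That is 14.3% in each direction, beside 8.13% higher and 13.3% lower of all entries tested, so the share that fell was near that of all entries. With the block, 18.4% of all entries were called higher and 24.4% lower. Slc25a5 (chromosome X, 36795652 to 36798806), the ADP/ATP carrier ANT2 of dividing cells, had 839, 797 and 895 FPKM in the CHIR99021 libraries, against 621, 590.4 and 703 FPKM in the DMSO libraries. The groups did not overlap (log2 change 0.40 ± 0.10 SE, adjusted p = 0.0294), but it was not called without CHIR99021 replicates 1, 2 or 3 or DMSO replicates 1 or 2 (adjusted p = 0.0556 to 0.128), nor with no limit on level (0.0602), within 0.000965 to 0.128 over the 14 alternatives. Its transcript is 96.8% identical to 1 processed pseudogene over 900 bases, and 98.3% to another over 887. Slc25a3 (chromosome 10, 91116578 to 91123963), the phosphate carrier that supplies the ATP synthase, had 539, 504 and 535 FPKM in the CHIR99021 libraries, against 421, 362 and 385 FPKM in the DMSO libraries. CHIR99021 was 1.35-fold higher (log2 change 0.44 ± 0.09 SE, adjusted p = 0.0139), not called without CHIR99021 replicates 1 or 3 or DMSO replicate 3 (adjusted p = 0.0503 to 0.0686), within 0.000907 to 0.0686 over the 14 alternatives. Slc25a4 (chromosome 8, 46207341 to 46211009), ANT1, the ADP/ATP carrier best known from heart and muscle, had 288, 297 and 289 FPKM in the CHIR99021 libraries, against 209.9, 212 and 236 FPKM in the DMSO libraries. The CHIR99021 libraries lay close together and above every DMSO library (log2 change 0.41 ± 0.08 SE, adjusted p = 0.0117). Slc25a4 was not called without CHIR99021 replicate 3 (adjusted p = 0.0528), within 0.00201 to 0.0528 over the 14 alternatives. These 3 carriers made up 75.8%, 74.0% and 75.9% of the summed carrier FPKM in the CHIR99021 libraries, against 65.1%, 65.0% and 67.3% in the DMSO libraries, so their share did not overlap between groups.

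None of the 3 calcium-regulated ATP-magnesium/phosphate carriers passed the test. Slc25a25 had 10.2, 11.3 and 8.29 FPKM in the CHIR99021 libraries, against 11.3, 12.2 and 12.3 FPKM in the DMSO libraries (log2 change -0.25 ± 0.13 SE, adjusted p = 0.197). Slc25a23 was nearly level, with a log2 change of 0.04 ± 0.12 SE (adjusted p = 0.849). Slc25a24 had 1.94, 0.388 and 0.553 FPKM in the CHIR99021 libraries, against 2.84, 1.02 and 0.716 FPKM in the DMSO libraries. It differed more between replicate numbers than between treatments, was highest in replicate 1 of both groups, as were the fibroblast markers, and gave no call (log2 change -0.36 ± 0.38 SE, adjusted p = 0.562).

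For carboxylates, 2 of 4 members fell and none rose by the test, beside 13.3% lower and 8.13% higher of all entries tested. Slc25a11 (chromosome 11, 70644027 to 70647039), the oxoglutarate/malate carrier of the malate-aspartate shuttle, had 51.5, 37.7 and 45.7 FPKM in the CHIR99021 libraries, against 90.01, 69.6 and 84.8 FPKM in the DMSO libraries. It was 1.81-fold lower with no overlap (log2 change -0.85 ± 0.14 SE, adjusted p = 0.00563). Slc25a10 (chromosome 11, 120491837 to 120501161), which exchanges malate or succinate for phosphate, had 10.9, 10.9 and 11.2 FPKM in the CHIR99021 libraries, against 18.1, 18.4 and 17.8 FPKM in the DMSO libraries. The values within each group differed by less than 1 FPKM, and CHIR99021 was 1.65-fold lower (log2 change -0.67 ± 0.09 SE, adjusted p = 0.00195). Both calls held whichever library was left out. Slc25a1, the citrate carrier that exports carbon for lipid synthesis, had 36.2, 39.4 and 37.8 FPKM in the CHIR99021 libraries, against 37.4, 39.4 and 42.5 FPKM in the DMSO libraries. Those ranges overlapped (log2 change -0.07 ± 0.08 SE, adjusted p = 0.611), as did those of Slc25a20, the carnitine/acylcarnitine carrier of fatty acid oxidation (log2 change 0.04 ± 0.18 SE, adjusted p = 0.908).

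Among carriers of nucleotides and cofactors was the member with the largest rise, Slc25a33. Slc25a33 (chromosome 4, 149744036 to 149774267), the pyrimidine nucleotide carrier PNC1, had 11.4, 14.5 and 13.7 FPKM in the CHIR99021 libraries, against 4.98, 6.04 and 6.44 FPKM in the DMSO libraries. The lowest CHIR99021 value was well above the highest DMSO value, and CHIR99021 was 2.27-fold higher (log2 change 1.06 ± 0.14 SE, adjusted p = 0.00211). Slc25a36, which encodes the second pyrimidine nucleotide carrier PNC2, had 15.1, 15.4 and 20.1 FPKM in the CHIR99021 libraries, against 14.9, 14.2 and 15.2 FPKM in the DMSO libraries. The Slc25a36 ranges overlapped and the test was not passed (log2 change 0.17 ± 0.12 SE, adjusted p = 0.374). The call of Slc25a33 held whichever library was left out.

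Of the nucleotide and cofactor carriers, 3 were called higher only with the replicate block, which called 18.4% of all entries higher, against 8.13% without it. Slc25a17, the peroxisomal carrier of coenzyme A and related cofactors, had 38.003, 32.02 and 33.6 FPKM in the CHIR99021 libraries, against 30.8, 25.7 and 26.8 FPKM in the DMSO libraries. The groups did not overlap (log2 change 0.31 ± 0.10 SE, adjusted p = 0.0764, or 0.00688 with the replicate block, within 0.00688 to 0.204 over the 14 alternatives). Slc25a32, which takes up folate or flavin, had 9.03, 12.8 and 9.88 FPKM in the CHIR99021 libraries, against 7.03, 8.51 and 9.12 FPKM in the DMSO libraries. Its DMSO replicate 3 exceeded CHIR99021 replicate 1 (log2 change 0.32 ± 0.15 SE, adjusted p = 0.178, or 0.0419 with the replicate block, within 0.0419 to 0.439 over the 14 alternatives), and without CHIR99021 replicate 2 the log2 change was 0.19. Slc25a51, the NAD carrier, had 14.04, 16.4 and 16.3 FPKM in the CHIR99021 libraries, against 11.4, 14.01 and 14.3 FPKM in the DMSO libraries. Overlap came from CHIR99021 replicate 1, below DMSO replicate 3 (log2 change 0.22 ± 0.12 SE, adjusted p = 0.223, or 0.0403 with the replicate block, within 0.0403 to 0.495 over the 14 alternatives), and without DMSO replicate 1 the log2 change was 0.13. Another 4 genes, Slc25a16, Slc25a26, Slc25a36 and Slc25a42, passed in neither fit, with log2 changes of -0.08 to 0.17 and ranges that overlapped.

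No amino acid carrier passed the test, although Slc25a15 and Slc25a22 did with the block. Slc25a15, the ornithine carrier, had 6.95, 7.0002 and 7.71 FPKM in the CHIR99021 libraries, against 5.72, 5.39 and 5.34 FPKM in the DMSO libraries. The CHIR99021 values were all higher (log2 change 0.34 ± 0.11 SE, adjusted p = 0.0600, or 0.0212 with the replicate block, within 0.0212 to 0.200 over the 14 alternatives). Slc25a22, a glutamate carrier, had 8.85, 17.6 and 10.98 FPKM in the CHIR99021 libraries, against 7.28, 13.2 and 8.24 FPKM in the DMSO libraries. Replicate 2 was the highest library in both groups, so that the groups overlapped although each CHIR99021 library exceeded the DMSO library of its number (log2 change 0.34 ± 0.27 SE, adjusted p = 0.425, or 0.0126 with the replicate block, within 0.0126 to 0.866 over the 14 alternatives). Its log2 change ranged from 0.08 without CHIR99021 replicate 2 to 0.57 without DMSO replicate 2. The malate-aspartate shuttle also needs the aspartate/glutamate carriers Slc25a12 and Slc25a13. Slc25a12 had 29.4, 33.1 and 32.9 FPKM in the CHIR99021 libraries, against 29.3, 27.3 and 30.5 FPKM in the DMSO libraries (log2 change 0.13 ± 0.09 SE, adjusted p = 0.353). Slc25a13 had 10.999, 10.97 and 11.5 FPKM in the CHIR99021 libraries, against 8.78, 8.52 and 11.1 FPKM in the DMSO libraries (log2 change 0.22 ± 0.12 SE, adjusted p = 0.234). Both pairs of ranges overlapped, and neither passed in either fit. Slc25a38, the glycine carrier used for haem synthesis, and Slc25a44, a carrier of branched-chain amino acids, did not pass either (log2 change -0.15 ± 0.13 and -0.25 ± 0.12 SE, adjusted p = 0.460 and 0.165).

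Of the iron and glutathione carriers, Slc25a39 rose. Slc25a39 (chromosome 11, 102402976 to 102407517), a carrier of glutathione, had 92.2, 91.3 and 99.2 FPKM in the CHIR99021 libraries, against 78.5, 63.4 and 63.1 FPKM in the DMSO libraries. No DMSO value reached the CHIR99021 range (log2 change 0.46 ± 0.10 SE, adjusted p = 0.0182), and it was not called without CHIR99021 replicate 3 or DMSO replicate 3 (adjusted p = 0.0676 to 0.0816), within 0.00561 to 0.0816 over the 14 alternatives. Its relative Slc25a40 had 3.26, 3.65 and 3.87 FPKM in the CHIR99021 libraries, against 4.72, 4.96 and 3.55 FPKM in the DMSO libraries, with overlap (log2 change -0.23 ± 0.15 SE, adjusted p = 0.322). The iron importers are mitoferrin 1, Slc25a37, and mitoferrin 2, Slc25a28. Slc25a37 had 6.25, 9.55 and 6.57 FPKM in the CHIR99021 libraries, against 4.55, 7.27 and 4.80 FPKM in the DMSO libraries. As with Slc25a22, replicate 2 was highest in both groups and each pair moved the same way (log2 change 0.37 ± 0.21 SE, adjusted p = 0.240, or 0.0115 with the replicate block, within 0.0115 to 0.550 over the 14 alternatives), and without CHIR99021 replicate 2 the log2 change was 0.20. Slc25a28 had 7.65, 9.74 and 6.43 FPKM in the CHIR99021 libraries, against 7.04, 10.9 and 7.19 FPKM in the DMSO libraries. It too was highest in replicate 2 of each group, and did not pass (log2 change -0.06 ± 0.20 SE, adjusted p = 0.864). The sign of this difference changed with the scaling, to 0.00 with upper-quartile and 0.02 with quantile scaling.

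The remaining calls were falls of 2 little-known carriers. Slc25a45 (chromosome 19, 5878466 to 5885768) had 10.998, 11.6 and 8.58 FPKM in the CHIR99021 libraries, against 15.3, 14.5 and 14.3 FPKM in the DMSO libraries. It was 1.41-fold lower with no overlap (log2 change -0.47 ± 0.13 SE, adjusted p = 0.0339), not called without CHIR99021 replicates 1 or 3 or DMSO replicates 1, 2 or 3 (adjusted p = 0.0609 to 0.102), nor with no limit on level (0.0626) or same-sum scaling (0.0716), within 0.00722 to 0.102 over the 14 alternatives. Slc25a35 (chromosome 11, 68968131 to 68972515), near the limit on level, had 0.685, 1.16 and 1.11 FPKM in the CHIR99021 libraries, against 2.68, 1.90 and 2.30 FPKM in the DMSO libraries. CHIR99021 was lower throughout (log2 change -0.73 ± 0.18 SE, adjusted p = 0.0255), but Slc25a35 was not called without CHIR99021 replicates 1 or 3 or DMSO replicates 1 or 3 (adjusted p = 0.0638 to 0.0755), within 0.0126 to 0.0755 over the 14 alternatives. The size of the Slc25a35 change depended on the pseudocount, at -1.16 with 0.1 FPKM added and -0.28 with 5, and the ratio of means was 2.32-fold lower. Its span overlaps that of Rangrf by 29 bases, the annotation gives them 547 bases in common, and Rangrf averaged 41.0 FPKM in CHIR99021 and 18.6 in DMSO. Slc25a53 had 3.23, 3.39 and 2.91 FPKM in the CHIR99021 libraries, against 1.76, 1.90 and 2.77 FPKM in the DMSO libraries, with no overlap and no call (log2 change 0.42 ± 0.17 SE, adjusted p = 0.110). Slc25a46, an outer membrane protein that acts in mitochondrial dynamics, and the uncoupling protein relatives Slc25a14 and Slc25a30 had log2 changes of -0.15 to 0.17 and did not pass. Of these 3, the groups of Slc25a14 and Slc25a30 overlapped.

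**Figure D2:**
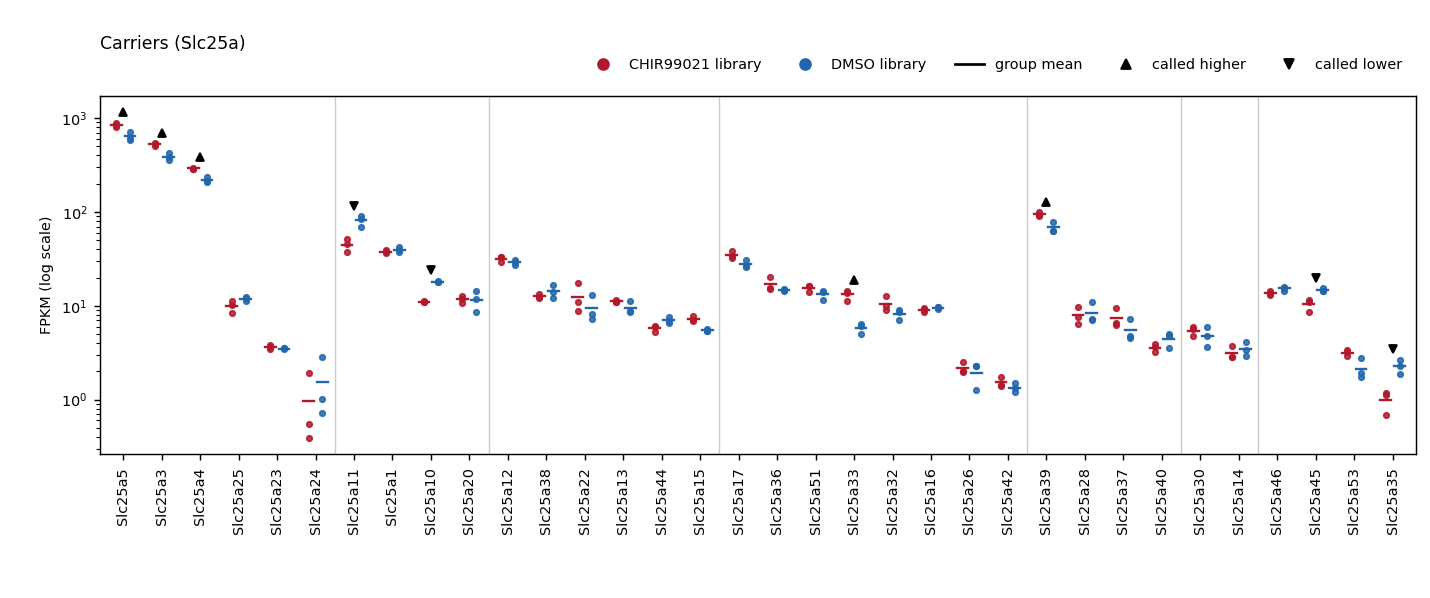
FPKM (log scale) of 34 of the 35 Slc25a members in each of the 3 CHIR99021 and 3 DMSO libraries, with group means as bars, ordered by substrate class and divided by grey lines. Triangles mark the 5 called higher and the 4 shown that were called lower; the 3 highest carriers, Slc25a5, Slc25a3 and Slc25a4, all rose, whereas Slc25a11 and Slc25a10 fell.

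**Figure D3:**
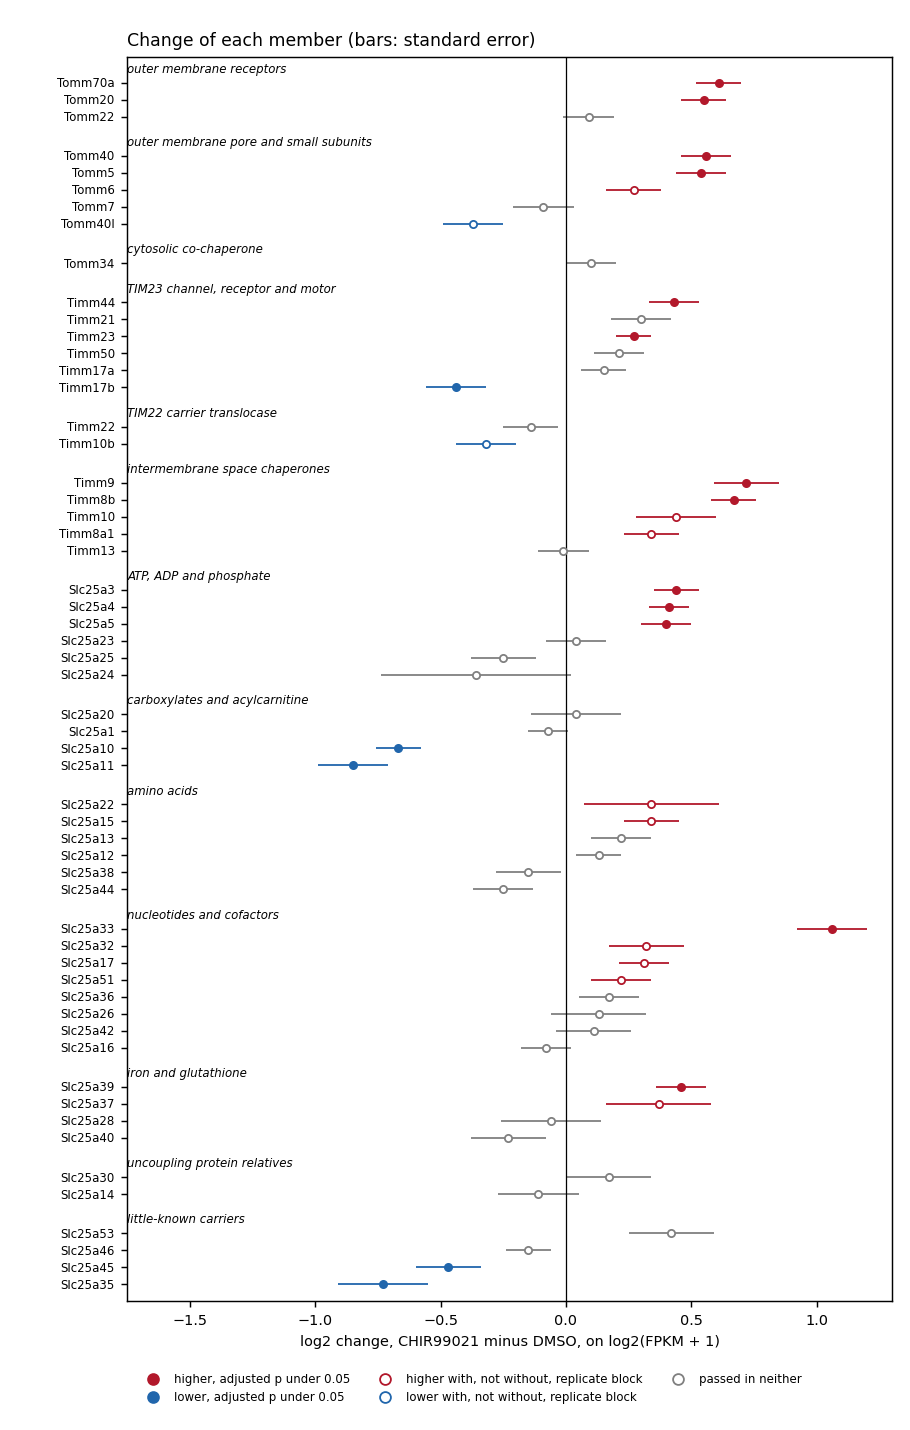
Log2 change (CHIR99021 minus DMSO, on log2(FPKM + 1), bars for the SE) of 56 of the 57 members by role. Filled points passed an adjusted p of 0.05 (13 higher and 5 lower are shown), open coloured points passed with the replicate number as a block and not without it (9 higher, 2 lower), and the values run from -0.85 for Slc25a11 to 1.06 for Slc25a33.

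Related genes were set against each other by their ratio within each library, which a single scaling factor per library leaves as it is. Both genes passed the level limit for 9 pairs. With 3 libraries a group the exact two-sided permutation test cannot give a p below 0.1, so no ratio could pass 0.05. The ratio of Tomm40 to Tomm40l on the log2 scale was 3.79, 4.13 and 4.41 in the CHIR99021 libraries, against 3.02, 3.07 and 3.29 in the DMSO libraries (difference 0.98, exact permutation p = 0.1, 0.150 adjusted over 9 pairs). For Slc25a33 over Slc25a36 it was -0.41, -0.09 and -0.55 in the CHIR99021 libraries, against -1.58, -1.24 and -1.24 in the DMSO libraries (difference 1.00). In both pairs the groups did not overlap. Timm17a over Timm17b was 2.25, 2.63 and 2.27 in the CHIR99021 libraries, against 1.82, 1.83 and 1.60 in the DMSO libraries (difference 0.63). Slc25a39 over Slc25a40 was 4.82, 4.65 and 4.68 in the CHIR99021 libraries, against 4.06, 3.68 and 4.15 in the DMSO libraries (difference 0.75). The mitoferrins, Slc25a37 over Slc25a28, gave -0.29, -0.03 and 0.03 in the CHIR99021 libraries, against -0.63, -0.59 and -0.58 in the DMSO libraries (difference 0.50). All 3 of these ratios were higher in every CHIR99021 library than in any DMSO library. Timm8a1 over Timm8b was the other ratio without overlap, at -2.28, -2.05 and -2.13 in the CHIR99021 libraries, against -2.01, -1.67 and -1.80 in the DMSO libraries (difference -0.33). Each of these 6 pairs had an exact permutation p of 0.1, the smallest possible, or 0.15 adjusted. Among single entries tested, 40.1% had groups without overlap. The share among ratios of other genes was not computed, so the 6 cannot be set against it.

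The ratio of the ADP/ATP carriers overlapped between treatments. Slc25a4 over Slc25a5 was -1.54, -1.42 and -1.63 in the CHIR99021 libraries, against -1.56, -1.48 and -1.57 in the DMSO libraries (difference 0.01, exact permutation p = 1, also 1 after adjustment). Slc25a12 over Slc25a13 overlapped as well (difference -0.11, exact permutation p = 0.3). Slc25a24 over Slc25a25 spread over more than 2 log2 units within each group (difference -0.50, exact permutation p = 0.6).

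**Figure D4:**
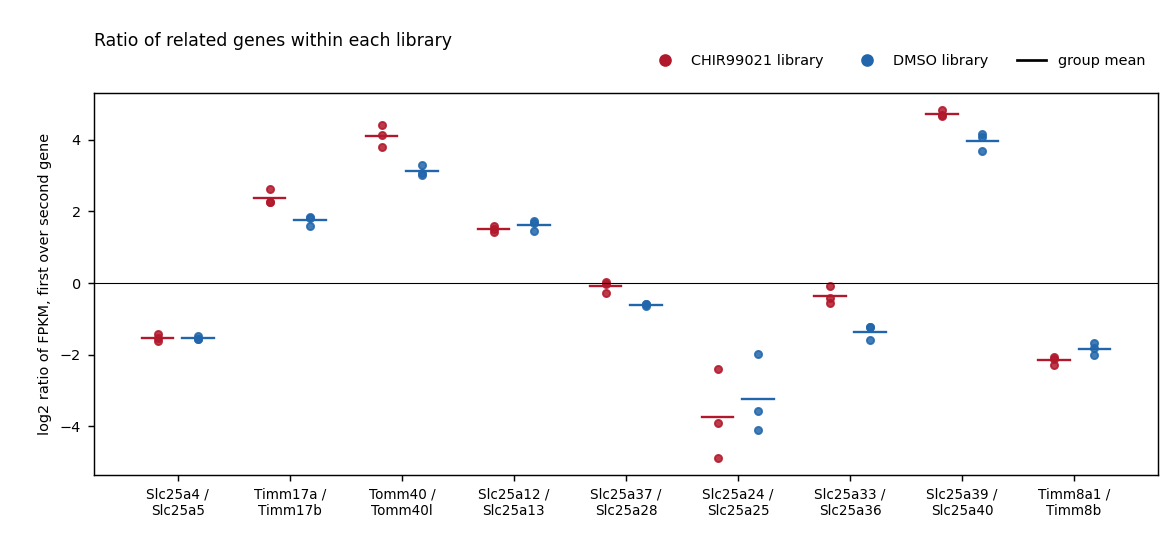
Log2 ratio of FPKM of the first over the second gene of 9 related pairs in each of the 3 CHIR99021 and 3 DMSO libraries, with group means as bars. The ratio of Tomm40 to Tomm40l averaged 4.11 in CHIR99021 and 3.13 in DMSO, whereas that of Slc25a4 to Slc25a5 averaged -1.53 in CHIR99021 and -1.54 in DMSO.

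Import genes with other names were read from a list of 22, of which 3 rose and 0 fell, or 10 rose with the block. Thus 13.6% of the list rose, whereas 8.13% of all entries tested rose and 13.3% fell. With the block, 18.4% of all entries were called higher and 24.4% lower. Chchd4, the oxidoreductase that folds small Tims in the intermembrane space, had 27.1, 33.5 and 35.6 FPKM in the CHIR99021 libraries, against 16.8, 19.2 and 21.9 FPKM in the DMSO libraries (log2 change 0.70 ± 0.14 SE, adjusted p = 0.0101). Gfer, the oxidase that recharges Chchd4, had 17.7, 19.3 and 18.6 FPKM in the CHIR99021 libraries, against 11.5, 15.7 and 11.8 FPKM in the DMSO libraries (log2 change 0.50 ± 0.13 SE, adjusted p = 0.0310). Hspa9, the Hsp70 of the import motor, had 123, 155 and 150.5 FPKM in the CHIR99021 libraries, against 74.5, 105 and 96.2 FPKM in the DMSO libraries (log2 change 0.64 ± 0.15 SE, adjusted p = 0.0196). In all 3 the groups did not overlap. The list had a median log2 change of 0.20. Of 19 tested genes for other transporters and channels of mitochondrial membranes, 2 rose and 4 fell (5 and 4 with the block), and the 4 with the lowest adjusted p were all lower. The shares without the block were 10.5% higher and 21.1% lower, beside 8.13% and 13.3% of all entries. Micu2, a regulator of the calcium uniporter listed under the symbol Efha1, fell (log2 change -0.62 ± 0.11 SE, adjusted p = 0.00620), as did Smdt1, a small subunit of the uniporter listed as 1500032L24Rik (log2 change -0.47 ± 0.10 SE, adjusted p = 0.0157). Sfxn3, a sideroflexin, fell too (log2 change -1.02 ± 0.20 SE, adjusted p = 0.0107). Ucp2, an uncoupling protein of the same carrier family, had 141, 125 and 153 FPKM in the CHIR99021 libraries, against 224, 174 and 214 FPKM in the DMSO libraries, and fell (log2 change -0.54 ± 0.12 SE, adjusted p = 0.0189). The 2 that rose, named after their values were seen, were Vdac1, the outer membrane channel for metabolites (log2 change 0.34 ± 0.09 SE, adjusted p = 0.0391), and Sfxn1, a serine carrier (log2 change 0.32 ± 0.09 SE, adjusted p = 0.0347).

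The closest comparison groups were the mitochondrial ribosomal proteins and the subunits of oxidative phosphorylation. Of 76 ribosomal protein genes, 9 rose and 1 fell (30 and 2 with the block, median log2 change 0.16), and of 79 oxidative phosphorylation genes, 11 rose and 1 fell (26 and 7 with the block, median 0.10). The members' median of 0.15 lay between the 2. Without the block, 33.3% of members were called (22.8% higher, 10.5% lower), against 21.4% of all entries. The share was 13.2% for the ribosomal protein genes (11.8% higher, 1.32% lower). It was 15.2% for the oxidative phosphorylation genes (13.9% higher, 1.27% lower). With the block, 22 of the 57 members were called higher and 8 lower. The counts were then 30 and 2 of the 76 ribosomal protein genes, and 26 and 7 of the 79 oxidative phosphorylation genes. Over all entries tested, the block called 42.8% (18.4% higher, 24.4% lower). The comparison between the sets thus depended on the fit and on the direction. No test was run on these differences.

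The 14 entries below the limit on level were Tomm20l, Timm8a2 and 12 carriers. Slc25a21, Slc25a31, Slc25a48 and Slc25a54 were listed at 0 in every library. Slc25a29, at a mean of 0.939 FPKM, was the nearest below the limit, and Slc25a24, at 1.24, the nearest above it.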

How the data were processed

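The authors deposited 1 table per library with, per the file headers, an FPKM for each gene, its confidence limits and a status, which was OK throughout. The labels' protocols name purified cells, an RNeasy kit and a TruSeq Stranded mRNA kit. The submitters' processing notes list mm10 and the programs Cufflinks 2.2.1, TopHat2 2.1.1 and cutadapt 1.12. How cells were purified, the annotation and the strand setting are each not given in the sources used here, and reads of overlapping or near-identical genes may be shared. Fragment numbers are not given, so precision was read from the deposited limits.

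The test compared log2(FPKM + 1) between CHIR99021 and DMSO for the 10096 entries with a mean of 1 or more. It was limma 3.58.1 under R 4.3.3 (eBayes with a variance trend, two-sided, Benjamini-Hochberg over all of them, threshold 0.05). The 1 FPKM added before the log makes changes of low genes look smaller. The code was tested on simulated data. Same-numbered libraries deviated together (r = 0.535, 0.490 and 0.517 across genes), but no label says that they are paired. The main test therefore ignored the replicate number. A fit with that number as a block was the alternative, and its value is given for members whose call it changes. Spans are the deposited ones with starts counted from 1. Near-identical transcripts (95% over 200 bases or more) were sought in GENCODE M21 with BLAST. Such stretches were found for 17 of the 57 members. Besides those named above, antisense genes share 281 bases with Slc25a33, 258 with Tomm40 and 228 with Slc25a10. Tomm6 shares 656 of 749 bases with Gm21981, and Timm8a1 612 of 1421 with Gm9797. Near-identical stretches also cover 2119 of 4712 bases of Tomm40l in Nr1i3, 382 of 4174 of Slc25a37 in Gm16867 and 365 of 3273 of Timm10b in Gm45799. The remaining members with such stretches were Slc25a12, Slc25a36, Slc25a40, Slc25a46 and Timm17a. Their part in the changes was not tested. Python 3.11.15 was used besides.

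Members, lists and motifs were chosen with earlier results of these data known. Values per library are given for members called with or without the block, the 3 highest per family, related pairs and the 5 largest changes per family. Other members are summarised, except that values per library of Slc25a1, Slc25a53 and Timm13 were added after they were seen. Alternatives were pseudocounts of 0.1 and 5, no limit on level, 3 scalings, the block, no variance trend and leaving out each library. RefSeq windows were matched for 46 members, and those of the other 11 were not used here. A member called lower and a B cell marker are not reported here, although the member stays in all counts and sums.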

Additional observations from a re-analysis of the deposited data

How the results depend on the processing

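The 19 called members kept their direction under all 14 alternatives, and 10 of them their call when any single library was left out. Members called higher numbered 22 with the replicate block, and 7 to 12 with a library left out. Those called lower numbered 3 to 5 with a library left out. For Tomm, the count called lower was 1 with the block. The Timm count called higher was 2 with same-sum scaling and 2 to 4 with a library left out. The Timm count called lower was 0 without a limit on level and with upper-quartile or quantile scaling, 2 with same-sum scaling or the block, and 0 to 1 with a library left out. For carriers, 11 were called higher with the block, 1 to 4 with a library left out, and 3 to 5 were called lower with a library left out. The block called 11 members that were not called without it and ended or changed no other call. Timm17b lost its call under both rescalings that moved the median of all genes to 0.03, from -0.04 as deposited. The cause was not tested for any of these.

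Signs turned for 7 members that were not called and for 2 ratios. Upper-quartile scaling gave 0.00 for Slc25a1, 0.00 for Slc25a28 and 0.06 for Timm13, and quantile scaling gave 0.00 for Slc25a16, 0.02 for Slc25a28 and 0.04 for Timm13. With a library left out, Slc25a20 ran from -0.14 to 0.20, Slc25a26 from -0.04 to 0.22, Slc25a28 from -0.20 to 0.12, Timm13 from -0.08 to 0.05 and Tomm7 from -0.18 to 0.01. The ratio difference of Slc25a4 to Slc25a5 then ran from -0.05 to 0.05 and that of Slc25a24 to Slc25a25 from -1.16 to 0.12, and the second was 0.06 with 5 FPKM added. Of all calls, 37.9% were higher, against 52.3% with upper-quartile, 51.2% with quantile and 27.0% with same-sum scaling. Over all genes, 2164 were called, or 4321 with the block and 1061 to 1983 with a library left out. Slc25a24, Slc25a35 and Slc25a42, the least expressed members, averaged between 1 and 2 FPKM, and their fragment numbers are unknown.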
